A study of Drosophila melanogaster with 3 samples.

Results

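The 4900 regions described here are chromatin immunoprecipitation (ChIP-seq) peaks of GFP-tagged net that fell below the reproducibility limit of the series and yet had a summit at nearly the same place in every library. They were chosen from the measured peak lists. A peak of the relaxed list called on the pooled libraries became a member when it overlapped no peak of the irreproducible discovery rate (IDR) list and when its summit lay within 100 bp of a summit in the list of each of the 3 libraries. The relaxed pooled list held 30000 peaks, of which 20424 overlapped none of the 7571 IDR peaks, and members were 24.0% of those 20424. The other 15524 are called the other sub-threshold peaks below, and the 6505 IDR peaks that met the same 100 bp rule in all 3 libraries are called the matched IDR peaks. The flies were a transgenic *Drosophila melanogaster* line with GFP at the C-terminal end of net, collected whole as prepupae of both sexes, and their sonicated chromatin was precipitated with an antibody against GFP. The 3 libraries are biological replicates 1, 3 and 4 of this single genotype and stage. All animals carried the fusion, an untagged or unprecipitated library was not analysed here, and a whole prepupa mixes all its tissues, so a signal from a few cells cannot be told apart from a weak signal in many.

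The gene net encodes a basic helix-loop-helix (bHLH) transcription factor that keeps wing vein fate out of intervein cells, where it acts against rhomboid (rho), an activator of epidermal growth factor (EGF) receptor ligands. Proteins of the bHLH class bind DNA as dimers at E-boxes, which have the letters CANNTG. The IDR procedure compares the ranks of peaks between replicates and places a limit where the ranks stop resembling each other, so peaks below the limit are ordinarily set aside. Prepupae are the stage that follows the late larval pulse of the moulting hormone ecdysone.

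The DNA under the members is shown first for 1 member of high signal (pooled ranks 7576, 7578 and 7579) in each of 3 location classes, taken where the window of 50 bp on both sides of the summit overlapped no annotated exon. Capitals mark E-boxes, and the sequences are the plus strand of the Release 6 genome (build dm6).
fs(1)h promoter, chrX:8058579-8058679: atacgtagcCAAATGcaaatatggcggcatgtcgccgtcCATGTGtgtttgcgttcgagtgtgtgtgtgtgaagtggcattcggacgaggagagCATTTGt
Trf2 intron, chrX:8419697-8419797: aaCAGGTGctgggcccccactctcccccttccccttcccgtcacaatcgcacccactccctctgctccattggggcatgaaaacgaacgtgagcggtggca
intergenic, nearest start witty, chr2L:8334828-8334928: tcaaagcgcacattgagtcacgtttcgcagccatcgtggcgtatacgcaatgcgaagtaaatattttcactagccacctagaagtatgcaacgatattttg
The window at fs(1)h, a gene for a bromodomain protein of the BET family, held 3 E-boxes. The window in Trf2, which encodes a relative of the TATA-binding protein, held 1, and the window near witty held 0. The GC contents of these windows were 50.5%, 62.4% and 43.6%.

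The next 3 members, also of high signal, are shown because each holds the 6-letter word that was most raised at member summits over their flanks, AGGGTA or its reverse complement TACCCT, in capitals.
RtGEF intron, chr2L:20351911-20352011: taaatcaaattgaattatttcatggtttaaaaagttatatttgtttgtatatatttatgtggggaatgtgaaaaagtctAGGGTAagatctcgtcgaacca
intergenic, nearest start Lip4, chr2L:10522548-10522648: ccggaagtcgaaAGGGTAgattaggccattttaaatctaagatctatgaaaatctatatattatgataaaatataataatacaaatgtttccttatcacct
B4 intron, chr2L:13512732-13512832: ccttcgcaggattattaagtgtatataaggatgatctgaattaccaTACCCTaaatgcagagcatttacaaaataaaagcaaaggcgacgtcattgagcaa
The GC contents of these 3 windows were 27.7%, 27.7% and 36.6%, below the genome's 42.2%.

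Members were the stronger sub-threshold peaks, and as the rule used the libraries' summits this is a description without a test. The authors' signal per peak, which has no unit and is comparable within a list only, ran from 34.3 to 134 in the members with a median of 89.6. Its median was 48.7 in the other sub-threshold peaks and 238 in the matched IDR peaks. The share of sub-threshold peaks that were members rose over 10 equal bins of pooled signal, from 0.392% in bin 1 to 9.30% in bin 5 and 70.1% in bin 10. The q-value deposited by the authors was below 0.05 for 3213 members (65.6%) and for 2056 of the other sub-threshold peaks (13.2%). Nearly all members had the same width, with 4895 of 4900 at 460 bp, and they formed 4806 separate regions.

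**Figure D1:**
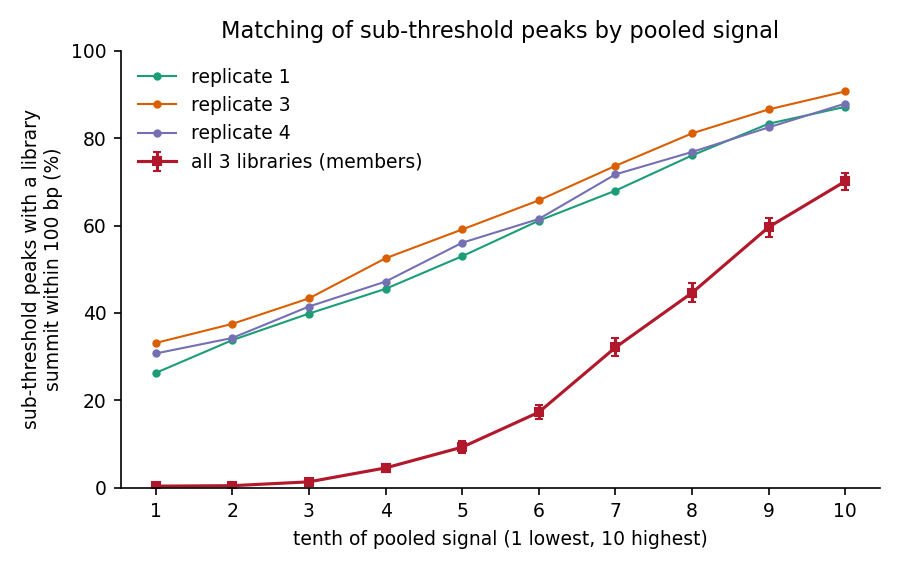
The share of sub-threshold pooled peaks (vertical axis, percent) that had a summit within 100 bp in each library (lines) and in all 3 libraries (squares, with exact 95% Clopper-Pearson intervals) is plotted against pooled signal in 10 equal bins. The share in all 3 libraries climbs from 0.392% to 70.1%, while those in single libraries climb from between 26.3% and 33.1% to between 87.2% and 90.7%.

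At the signal limit, members and IDR peaks were close neighbours. The member of highest signal, in an intron of CG14502 and of sbb, the gene of a transcriptional corepressor, had a signal of 134.17 and pooled rank 7572. The IDR peak of lowest signal, in an intron of CLIP-190, had a signal of 134.20 and pooled rank 7571. At the distance limit, 458 members had their farthest library summit 91 to 100 bp away (median signal 83.9), and 388 peaks missed the limit by at most 10 bp (median signal 80.2).

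The libraries placed the members in the middle of their own lists. The matched peak's median rank by signal among 30000 was 14663.5 in replicate 1, 13794 in replicate 3 and 13972.5 in replicate 4. The number of members whose matched peak stood among a library's 7571 strongest was 383, 418 and 368 in the same order. This was so in 0 libraries for 3843 members (78.4%), in 1 library for 947 and in 2 libraries for 108. It was so in all 3 for 2 members, those at Kap3 and Sik3. The highest rank of a member divided by its lowest had a median of 1.77 and exceeded 2 in 1735 members (35.4%).

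**Figure D2:**
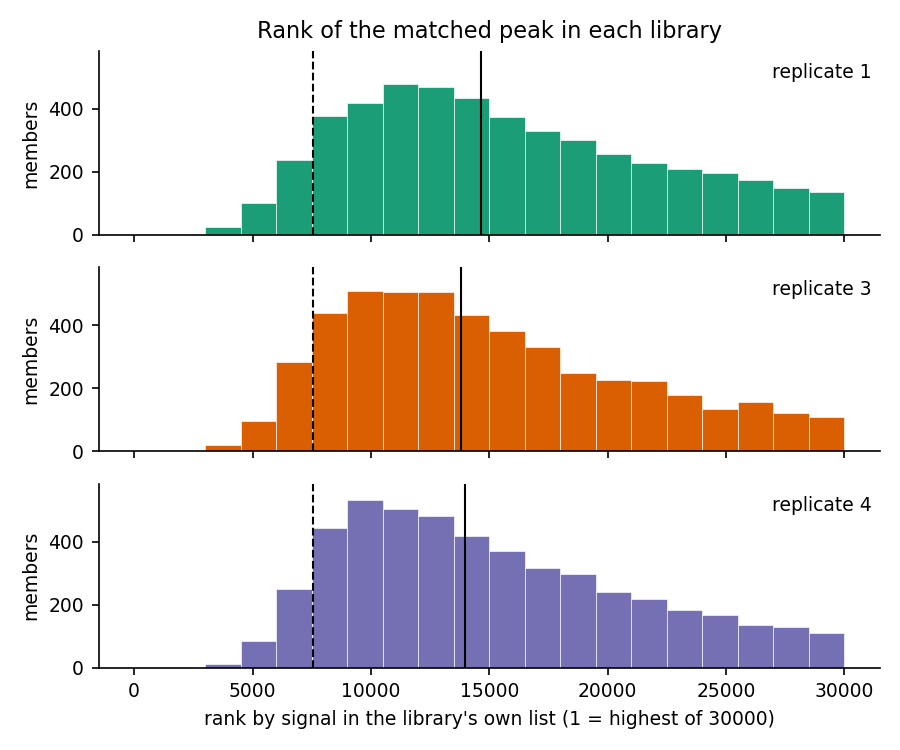
The number of members (vertical axis) is plotted by the rank of the matched peak in the list of replicate 1, 3 or 4 (horizontal axis, 1 is the highest signal of 30000). The solid line is the median, at 14663.5, 13794 and 13972.5, and the dashed line is rank 7571, left of which lie 383, 418 and 368 members.

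Across the 4900 members, Spearman's rho of the ranks was 0.28 for replicates 1 and 3, 0.26 for 1 and 4, and 0.27 for 3 and 4. Across the matched IDR peaks it lay between 0.74 and 0.76. These values describe peaks that share their libraries, and the members span a narrower range of signal by choice. Summits were placed less tightly too. The median distance from the pooled summit was 18 bp in replicate 1, 27 bp in replicate 3 and 17 bp in replicate 4. All 3 library summits lay within 50 bp for 2405 members (49.1%), against 64.7% of the matched IDR peaks.

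Individual members show this spread between libraries. The fs(1)h member, 271 bp upstream of a start site, ranked 4044 in replicate 1, 4938 in replicate 3 and 18062 in replicate 4. The Trf2 member ranked 13677, 5242 and 9255 in the same order, and the one near witty ranked 14832, 5643 and 10242. Replicate 4 thus placed the first of them lowest and replicate 1 the other two, although all 3 had a pooled signal of 134. The best mean rank over the 3 libraries belonged to Kap3, a subunit of the kinesin-II motor, whose member 115 bp inside the gene ranked 6314, 5420 and 4531 although its pooled signal of 74.3 put it at pooled rank 14379. The member in an intron of Sik3, a salt-inducible kinase, ranked 5944, 6985 and 7357 with a signal of 121. Other members of low mean rank lay in introns of sgg, which encodes the kinase GSK3, of Tet, an oxygenase of nucleic acids, and of eff, a ubiquitin-conjugating enzyme.

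Most members lay outside promoters. Of 4900 summits, 980 (20%, 95% interval 18.9 to 21.1) lay within 500 bp of a transcription start site (TSS), here called promoter. The remaining summits fell in exons (4.06%), introns (52.0%) and intergenic DNA (24.0%), in that order of precedence. The matched IDR peaks had 35.8% in promoters, so the members' share was lower by 15.8 percentage points (Fisher's exact test, two-sided, adjusted p = 1.25e-76 over the 4 classes). The members' shares were higher in introns, at 52.0% against 45.4% (exact adjusted p = 4.90e-12), in intergenic DNA, at 24.0% against 16.1% (adjusted p = 1.48e-25), and in exons, at 4.06% against 2.78% (adjusted p = 2.17e-04). The exon difference did not pass with a promoter limit of 200 bp, at 0.534 percentage points (exact adjusted p = 0.218). The median distance to a TSS was 2634.5 bp for members and 1181 bp for matched IDR peaks. These tests treat peaks as independent, compare peaks of 1 pool of 3 libraries and cover counting error only. Signal could not be held alike, since members ended at 134.17 and matched IDR peaks began at 134.20. Among the other sub-threshold peaks the promoter share was 13.4% in the lowest quartile of signal and 34.4% in the highest. Among members it was 13.3% and 22.4%. What part signal had in the differences from the matched IDR peaks was not tested.

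Against the other sub-threshold peaks the members differed little until signal was held alike. Over all signals the promoter share was 20% in members and 18.4% in the others (exact adjusted p = 0.0167), the exon share 4.06% and 4.98% (adjusted p = 0.0158), the intron share 52.0% and 50.5% (adjusted p = 0.0689) and the intergenic share 24.0% and 26.2% (adjusted p = 0.00836). Within the highest quartile of sub-threshold signal, the order of the promoter shares turned. There, 702 of 3134 members (22.4%) and 678 of 1972 other peaks (34.4%) lay at promoters, and the members' share minus the others' was -11.98 percentage points (Fisher's exact test, p = 4.91e-20 adjusted over the 4 quartiles). In the next quartile the shares were 15.03% and 20.3% (exact adjusted p = 2.33e-05), and in the second they were 19.4% and 15.7% (adjusted p = 0.116). The lowest quartile held 30 members, of which 4 were at promoters (13.3%, against 13.4% of the others, exact adjusted p = 1). Even within the highest quartile the members had the higher signal, with a median of 103 against 95.1. The split by signal was made after the data had been seen. Without replicate 1 in the rule, the difference over all signals was 0.25 percentage points (exact adjusted p = 0.657), and without replicate 4 it was 4.91. Without replicate 1 the exon and intergenic differences did not pass either (exact adjusted p = 0.0516 for both), nor did the exon difference without replicate 4 (adjusted p = 0.095).

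Each library showed the lower promoter share of its matched peaks within the highest quartile. The share among peaks with a summit in the library was 26.4% in replicate 1, 26.04% in replicate 3 and 24.4% in replicate 4. Among those without one it was 30.2%, 33.8% and 40.5% in the same order. The 2 sets of values do not overlap, with means of 25.6% ± 1.05 and 34.9% ± 5.24 (SD, n = 3). Each library splits the same pooled peaks, and the pooled signal that sets the quartile combines the 3 libraries. The 3 pairs of values are therefore not independent, and the means and SDs are a description only. Over all sub-threshold signals the same shares were 21.2%, 19.6% and 18.4% with a library summit and 15.5%, 17.4% and 19.3% without, and those sets overlap, with the order in replicate 4 opposite to that in the other two. Of the 678 promoter peaks of the highest quartile that were not members, 32.3% had their farthest library summit more than 1 peak width (460 bp) away, against 20.7% of the 386 intergenic ones. A further 42.8% of the promoter peaks and 57.3% of the intergenic ones had it within 200 bp.

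**Figure D3:**
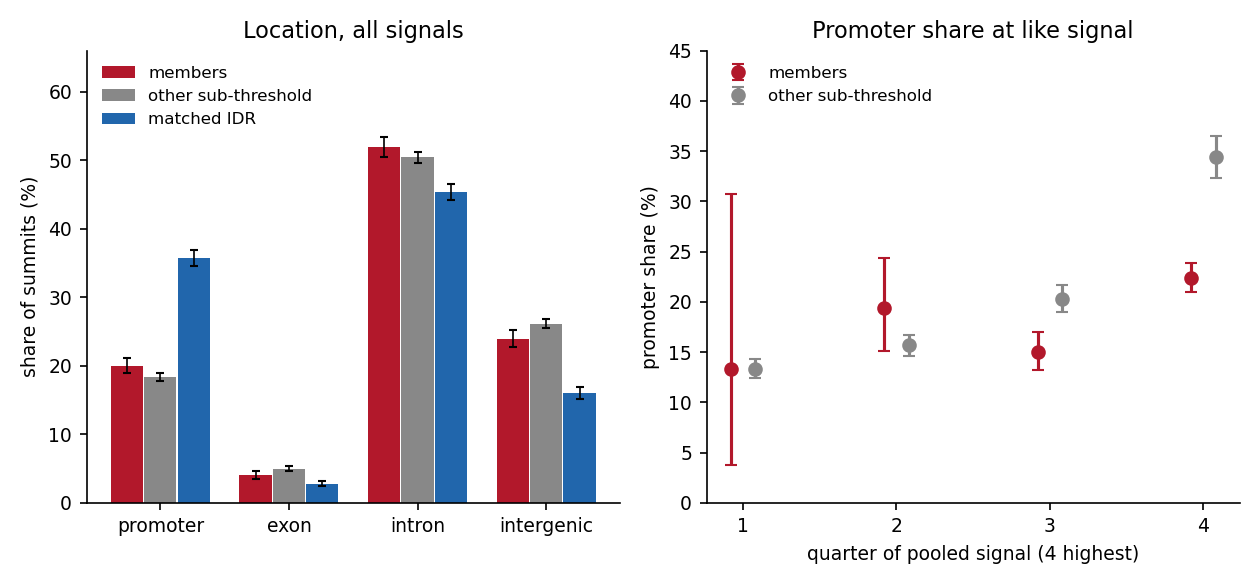
Left, the share of summits (percent) by location for 4900 members, 15524 other sub-threshold peaks and 6505 matched IDR peaks. Right, the promoter share of members and other sub-threshold peaks by quartile of pooled signal; bars and points carry exact 95% Clopper-Pearson intervals, and in the highest quartile the members' 22.4% lies below the others' 34.4%.

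Within promoters, members sat close to the start. Of the 980 promoter summits, 421 (43.0%) were within 100 bp of a TSS and the median distance was 127 bp, against 153.5 bp in the other sub-threshold peaks and 140 bp in the matched IDR peaks, a difference that was not tested. A protein-coding TSS was within 500 bp for 855 of them (87.2%).

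The X chromosome held 988 members (20.2%) and 17.8% of the other sub-threshold peaks, a difference of 2.31 percentage points (Fisher's exact test, adjusted p = 0.0018 over 6 arms). Of the matched IDR peaks, 19.4% were on X. The shares of the remaining arms did not pass the test, with the nearest on 3R at 22.0% and 23.5% (exact adjusted p = 0.0692). In the highest signal quartile, 65.9% of the sub-threshold peaks on X were members, and on the 4 large autosomal arms the share ran from 58.4% to 63.6%. The difference on X was 0.47 percentage points when replicate 4 was left out of the rule (exact adjusted p = 0.821). With summits matched at 200 bp it was 0.939 (exact adjusted p = 0.59), and with the stronger members only 2.15 (exact adjusted p = 0.0667).

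Over all signals, members had an IDR peak nearby somewhat more often than the other sub-threshold peaks, although none overlapped one. An IDR summit lay within 2 kb of 1497 members (30.6%) and of 27.4% of the other sub-threshold peaks (Fisher's exact test, p = 2.18e-05), and the median distance was 3801 bp and 4470 bp. This order also turned within the highest signal quartile, where the shares were 32.5% and 36.3% (exact p = 0.00691). In the next quartile they were 26.7% and 30.9% (Fisher's exact test, p = 0.00306), and in the second 25.8% and 25.9%. Only the lowest quartile, with 30 members, had the higher share in members, at 53.3% against 22.8%. At the far end, 628 members (12.8%) were more than 20 kb from any IDR summit. Among these were the intergenic member near witty, 26892 bp away, and the one 1434 bp upstream of Osi11, a gene of the Osiris family, at 28848 bp.

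Base composition dipped at the members' summits. The window of 50 bp on both sides of the summit had a mean GC content of 39.7% ± 10.2 (SD, n = 4900), and the windows centred 250 bp away had 43.4% on both sides. The dip was deeper in the matched IDR peaks, from 44.5% on the right to 36.2%, and shallow in the other sub-threshold peaks, from 43.0% to 42.1%. Members at promoters did the opposite, with 44.0% at the summit and 41.8% on the right. Other sub-threshold peaks at promoters had the same order, with 44.1% and 42.8%, and matched IDR peaks at promoters had 39.0% and 43.3%. In intronic members the values were 38.6% and 43.3%, and in intergenic members 37.9% and 45.1%. Within the highest signal quartile the summit values of members and other sub-threshold peaks were 39.3% and 40.8%. How far base composition affected the recovery of fragments was not tested.

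**Figure D4:**
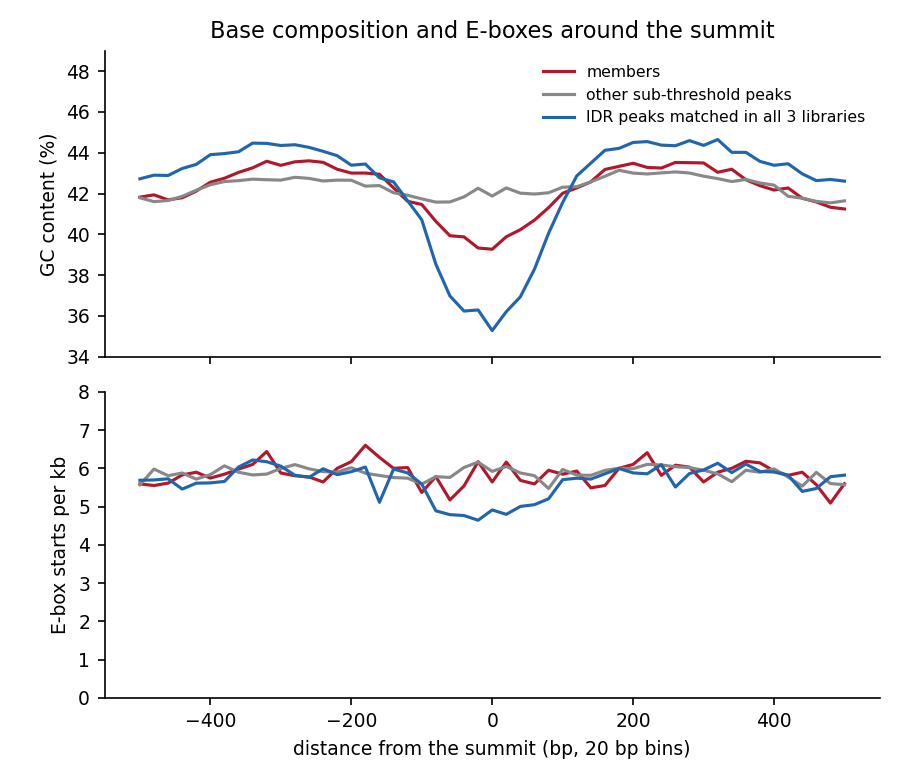
Mean GC content (top, percent) and E-box starts per kb (bottom) in 20 bp bins are plotted against distance from the summit for members, other sub-threshold peaks and matched IDR peaks. Members dip to 39.3% GC at the centre and matched IDR peaks to 35.3%, while the members' E-box line has no peak there, at 5.64 starts per kb.

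No difference in the raw share of windows with an E-box was found between the summits and the DNA beside them, where GC content was not held alike. An E-box was found on either strand in 2075 of 4900 summit windows (42.3%, 95% interval 41.0 to 43.7) and in 42.6% of the right-hand windows. The summit alone held one in 1200 members and the flank alone in 1214 (exact McNemar test, two-sided, p = 0.791), and the ratio of the shares was 0.993. The right-hand flanks had the higher GC content, at 43.4% against 39.7%, and their E-box share was not set against the genome at that GC content. Flank windows also reached into the ends of the peaks. With replicate 1 left out of the rule, summits held fewer E-boxes than flanks, with a ratio of 0.96 (exact McNemar test, p = 0.0331). Of all windows of this length in the genome, 39.3% held an E-box, and the share was 37.8% when genome windows were weighted to the members' GC content, so members stood at 1.12 times that level. The same ratio was 1.08 in the other sub-threshold peaks and 1.04 in the matched IDR peaks. By location it was 1.17 in intronic members, 1.096 in intergenic ones and 1.05 at promoters. Of the 10 E-box cores, which merge each word with its reverse complement, none passed the test against the flank after adjustment. The lowest p was that of CAAGTG, at 6.71% of summits and 7.92% of flanks (exact unadjusted p = 0.0246, adjusted p = 0.246), the 1 core with an unadjusted p under 0.05. Against the genome at the same GC content, CACATG had the highest ratio in members at 1.41, followed by CAACTG at 1.35 and CAGCTG at 1.32. In the other sub-threshold peaks these cores stood at 1.22, 1.18 and 1.26. In the matched IDR peaks they stood at 1.08, 1.07 and 1.49, so CAGCTG was higher there than in members.

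Of the 7 words of other factors, 3 differed between summits and right-hand flanks by the exact McNemar test with adjustment over the 7. TATAAA, the TATA box, was in 14.3% of summits and 11.1% of flanks (exact adjusted p = 1.62e-05), and AGATAA, a word of GATA factors, in 6.41% and 4.84% (adjusted p = 0.00278). Both matched the genome at the members' GC content, with ratios of 1.00 and 1.02. GGTCACAC, the core of a word of fly promoters known as Ohler motif 1, was in 19 summits (0.388%) and 5 flanks (0.102%, exact adjusted p = 0.0154), and its share in the left-hand flank was 0.347%, against which it did not pass (adjusted p = 0.868). Nor did it pass with replicate 1 (exact adjusted p = 0.0617) or replicate 3 (adjusted p = 0.0672) left out of the rule. The ratio of its share to the genome at the same GC content was 1.98 in members and 4.15 in matched IDR peaks. GAGAG (GAGA factor), TATCGATA (the DNA replication-related element, DRE), CAGGTAG (Zelda) and TGANTCA (AP-1) did not pass. At promoter members, TATCGATA was in 14 of 980 windows, 5.83 times the genome share at their GC content, and GAGAG was in 186, or 1.57 times. At promoters of the other sub-threshold peaks the ratios were 3.27 for TATCGATA and 1.62 for GAGAG. At promoters of the matched IDR peaks they were 4.91 and 1.62, so both words were raised in all 3 sets. All these words are letter matches within a short window.

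Of all 2080 words of 6 letters, each merged with its reverse complement, 304 (14.6%) were more common at member summits than in both flanks together, and 401 (19.3%) were less common, at adjusted p under 0.05 by Fisher's exact test. Here the test does not pair a summit with its own flanks. The word's own GC content went with its ratio, with Spearman's rho of -0.72 across words that overlap and share windows. With replicate 4 left out of the rule, 223 words were more common and 262 less common. Of the 304 raised words, 202 were also above the genome at the members' GC content, and of the 401 lowered words 311 were below it. The share of all 2080 words above it is not given here, so these counts are a description only. The largest ratio to the flanks belonged to AGGGTA, in 168 summit windows (3.43%) and 1.71% of flanks, a ratio of 2 (exact adjusted p = 1.50e-08). It stood at 1.46 times the genome at the same GC content, and its share was 3.85% in intronic and 2.65% in promoter members. The matched IDR peaks held it in 3.29% of summits and the other sub-threshold peaks in 3.13%. Those shares were 1.40 and 1.35 times the genome at like GC content, close to the members' ratio.

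Ranked instead by the ratio to the genome at like GC content, a choice made after the values were seen, the raised words were led by ACACTG. It was in 345 summit windows (7.04%) and 3.898% of flanks (exact adjusted p = 1.00e-13), at 1.94 times the genome level. The next 5 words were GTGCAC at 1.84, CAGTGC at 1.83, ACAGTG at 1.79, AGTGTA at 1.78 and CACTGA at 1.77. Read on either strand, 4 of these 6 words hold the letters CACTG, the exceptions being GTGCAC and AGTGTA, so they partly count the same sites. For ACACTG the matched IDR peaks stood at 1.95 times the genome and the other sub-threshold peaks at 1.56. AGAGAG and GAGAGA followed at 1.76 and 1.73, and both were highest at promoter and exon members, where AGAGAG reached 2.32 and 2.58 times the genome.

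Among the 13968 protein-coding genes, 891 had a member summit at most 500 bp from one of their own TSSs, and 706 of these, or 5.05% of all, had no IDR summit there. Without replicate 4 in the rule the 706 became 1152. A member in the gene or within 2 kb of it was found for 2871 genes (20.6%), and 1125 of them (8.05% of all) had no IDR summit by the same measure. An IDR summit in the gene or within 2 kb was found for 34.4% of all protein-coding genes. Of the 2871, 1857 had 1 member and 177 had 5 or more. Long genes led, with 27 members at kirre, an immunoglobulin-family protein of muscle founder cells that spans 394 kb and also held 29 IDR summits. CG43658 held 20 members, hth, a homeobox cofactor gene, 17, SKIP 15 and Eip75B, an ecdysone-induced nuclear receptor gene, 14. Longer genes have more room for summits, and the lists below are given with their median length for that reason.

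Promoter members at genes with no IDR summit at a TSS included one 16 bp inside ttv, which encodes a heparan sulfate polymerase, with ranks of 13675 in replicate 1, 4004 in replicate 3 and 7194 in replicate 4. The member 42 bp inside Vps60, of the ESCRT-III membrane complex, ranked 6761, 8877 and 15807. The member 107 bp inside Tep3, a thioester protein of immunity, ranked 6353, 6394 and 17648, and the one 411 bp upstream of PGRP-LA, a peptidoglycan recognition protein, ranked 14997, 5634 and 11018. Each of these 4 had a signal of 133, and in each the ranks in the 3 libraries differed by more than 2 times. The member 26 bp inside CG10283 was steadier, at 8253, 7234 and 9768.

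For the EGF receptor pathway, 13 of 24 genes had a member in the gene or within 2 kb, 20 had an IDR summit, and 0 had a member alone. The median length of these genes was 11340.5 bp, against 2164.5 bp over all protein-coding genes. Of all those, 20.6% had a member, 34.4% an IDR summit and 8.05% a member alone. With 24 genes listed, the count of 0 is a description only. The strongest member was in pnt, the Ets-family effector of the pathway, with a signal of 134, ranks of 5664, 6177 and 11368, and an IDR summit 715 bp away. Members also lay in Raf, the kinase of the cascade, with ranks of 8559, 8113 and 9380, and close to S, which helps export the ligand, with ranks of 11412, 9338 and 8215. All 37 member summits of this list stood beside genes that also had an IDR summit.

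For the Notch pathway, 10 of 22 genes (45.5%, against 20.6% of all protein-coding genes) had a member and 16 (72.7%, against 34.4%) had an IDR summit. A member alone was found for 0, against 8.05% of all, and with 22 genes listed this is a description only. The median length of these genes was 3344 bp. Ser, a ligand, had 6 members, of which the strongest (signal 131) ranked 6429 in replicate 1, 7829 in replicate 3 and 12860 in replicate 4. N, the receptor, had 3, and the strongest of them ranked 13494, 9921 and 7511. The strongest of 6 at kuz, the protease that cleaves the receptor, ranked 24971, 6111 and 7936, far lower in replicate 1 than in the other two.

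Of 30 wing vein genes, 22 had a member and 22 had an IDR summit, with 19 in common, and their median length was 15461 bp. Both shares were 73.3%, against 20.6% and 34.4% of all protein-coding genes, whose median length was 2164.5 bp. A member alone was found for 10%, against 8.05% of all. Genes of like length were not compared. Members without an IDR summit were found at mirr and caup, homeobox genes of the Iroquois complex, and at cv. The strongest of 3 members at mirr lay 443 bp upstream of its TSS with a signal of 120 and ranks of 6035, 10234 and 13505, and the strongest of 3 at caup was intronic with a signal of 112 and ranks of 13712, 10109 and 9493. The vein repressor gene px held 10 members, the strongest of which ranked 4130, 16717 and 10314. The wing vein list shares genes with the EGF receptor, Notch and bHLH lists, among them pnt, N and emc, so the shares of these lists are not separate observations.

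Of 23 ecdysone response genes, 22 had a member and 22 an IDR summit, at a median length of 31127 bp. Both shares were 95.7%, against 20.6% and 34.4% of all protein-coding genes, whose median length was 2164.5 bp. A member alone was found for 4.35%, against 8.05% of all. Genes of like length were not compared. The gene with a member and no IDR summit was rpr, an activator of cell death, whose member lay 9 bp inside the gene with a signal of 102 and ranks of 9633, 12728 and 14109. Of the 81 member summits of this list, 60 were intronic. The strongest was in Eip93F, a gene of metamorphosis, with ranks of 6090, 11573 and 11773. The next 2 were in ftz-f1, the nuclear receptor gene of mid-prepupae, with ranks of 4454, 7878 and 12721 for one and 8120, 11057 and 6885 for the other.

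Of 38 genes of bHLH factors, with a median length of 3305 bp, 13 had a member (34.2%, against 20.6% of all protein-coding genes). An IDR summit was found for 15 (39.5%), close to the 34.4% of all genes. A member alone was found for 7.89%, against 8.05% of all genes. Members without an IDR summit lay at sim, the midline factor gene, at Fer3 and at ss, whose protein pairs with that of tgo. The sim member had a signal of 108 and ranks of 8565, 7481 and 16256. The Fer3 member, 201 bp upstream of the TSS, had a signal of 100.96 and ranks of 12346, 9049 and 19426.

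Of ribosomal protein genes more had an IDR summit than a member, and of cuticle protein genes fewer did. Over all protein-coding genes, 34.4% had an IDR summit, 20.6% a member and 8.05% a member alone. Both kinds of gene are short, with median lengths of 1325.5 and 957 bp. Of 92 ribosomal protein genes, 69 (75%) had an IDR summit, 9 (9.78%) had a member and 3 had a member alone. Among the latter, the summit lay 30 bp upstream of the TSS of RpL38, with ranks of 10549, 5981 and 10374, and 3 bp inside RpS15, with ranks of 7951, 5746 and 14715. Of 119 cuticle protein genes, 12 (10.1%) had an IDR summit, 25 (21.0%) had a member and 23 (19.3%) had a member alone. The cuticle share with a member was thus at the level of all genes, and the share with an IDR summit was below it. The 25 genes rested on 22 summits, since clustered genes share them. The strongest served both Cpr65Ea and Cpr65Eb, with a signal of 128 and ranks of 9756, 8566 and 10768, and the summit at Lcp65Ad served Cpr65Aw and Lcp65Ac as well, with ranks of 15279, 8070 and 10666. Within 500 bp of a TSS, 0 cuticle genes had an IDR summit and 6 (5.04%) had a member, near the 6.38% of all genes with a member there. These counts describe the lists, which were not tested against other genes. The count of ribosomal protein genes with a member was 21 when replicate 4 was left out of the rule and 19 without replicate 1.

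**Figure D5:**
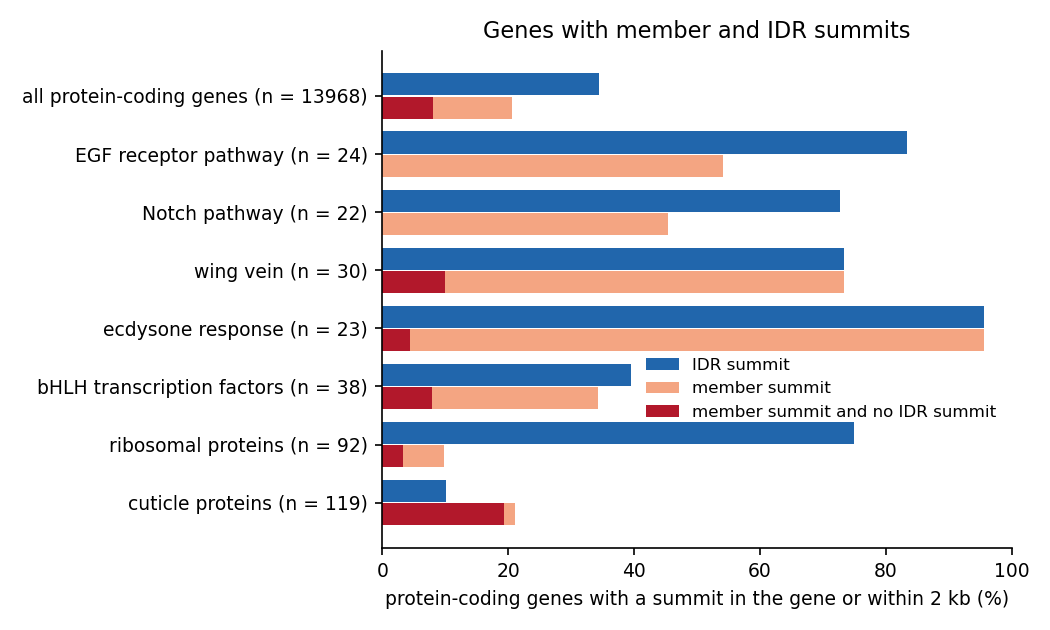
The share of genes (percent, horizontal axis) with an IDR summit (blue) or a member summit (pale red) in the gene or within 2 kb is shown for 7 gene lists and all protein-coding genes, and the dark red stretch is the share with a member and no IDR summit. Cuticle protein genes have 10.1% with an IDR summit and 21.0% with a member, and ribosomal protein genes 75% and 9.78%.

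At net itself, 1 member lay in an intron 775 bp inside the gene at position 86612 of arm 2L, 861 bp from an IDR summit. Its signal of 34.9 was near the bottom of the pooled list (rank 29422 of 30000), and so were its ranks of 25440 in replicate 1, 27364 in replicate 3 and 28853 in replicate 4. Within 10 kb of the gene there was 1 further member, intergenic at position 79035, with a signal of 104 and ranks of 5117, 19158 and 20069. Of the other sub-threshold peaks within 10 kb of net, 5 had a summit within 100 bp in only 1 or 2 libraries. Near rho, the 1 member was intronic in Ptp61F, at position 1458184 of arm 3L, 699 bp from an IDR summit, with a signal of 73.2 and ranks of 14869, 12557 and 17881. The precipitated chromatin can hold the transgene as well as the native locus, and the deposited peaks do not tell the 2 apart.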

How the data were processed

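The authors' ChIP-seq peak lists of 3 libraries of net-GFP prepupae (biological replicates 1, 3 and 4, 1 group) were used on build dm6, per the file headers and the labels. The lists hold a deposited signal per peak, a deposited −log10 q-value and a summit offset. Which aligner and caller made them is not given in the sources used here. The pooled relaxed list and the list of each library hold 30000 peaks each, so depth is unknown and no value could be set against read counts. Signal was used only to rank, split and describe peaks within 1 list.

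The members and the gene lists were chosen with earlier results of these data known. Summits were matched at 100 bp, and any shared base counted as overlap. Gene models were those of Ensembl release 115 without transposable elements and pseudogenes, which left 17947 genes and 23358 TSSs, and sequences came from the Release 6 genome. Named regions were the 10 members of highest signal, the 10 of lowest mean library rank, the 10 strongest promoter members at genes without an IDR summit there, the 3 IDR peaks of lowest signal and the 3 strongest members of each gene list, of which the text describes some; 1 listed gene is not reported here. Members at listed genes without an IDR summit were named in addition. Of the listed symbols, 9 entries had no protein-coding match by symbol and were not used. Shares were compared with Fisher's exact test, and summits with flanks by the exact McNemar test for E-boxes and the words of other factors. All words of 6 letters were compared between summits and both flanks together by Fisher's exact test, which ignores the pairing. Tests were two-sided, and adjusted p-values are by Benjamini-Hochberg (Python 3.11.15, scipy 1.17.1). Windows held 50 bp on both sides of the summit, flanks were centred 250 bp away, and genome shares came from 1323188 windows of the same length that do not overlap. Intervals are exact 95% Clopper-Pearson intervals. Peaks are not independent, so intervals and p-values cover counting error only. Alternatives changed the matching distance, the libraries used, the separation from IDR peaks, the promoter limit, the windows and the flank, and used the stronger members only or 1 summit per merged region.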

Additional observations from a re-analysis of the deposited data

How the results depend on the processing

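The lower promoter share of members against the matched IDR peaks held in all 10 alternatives tried, from -18.0 to -10.4 percentage points. None of them held signal alike, as these sets share no range of signal. The number of members, 4900, was 2405 with summits matched at 50 bp and 7404 at 200 bp, between 7086 and 7687 when 1 library was left out, which drops a condition of the rule, and 4700 on the dm3 lists. The promoter difference from the other sub-threshold peaks, 1.62 percentage points, was 1.44 at 50 bp (Fisher's exact test, adjusted p = 0.18) and ran from 0.25 to 4.91 without 1 library. Within quartiles of signal, chosen after the data were seen, it was -0.0236, 3.73, -5.27 and -11.98 from lowest to highest. The IDR-neighbour difference, 3.15 points, was 1.83 at 50 bp (Fisher's exact test, p = 0.0631) and from 2.38 to 4.38 without 1 library. From the lowest to the highest quartile it was 30.6, -0.189, -4.21 and -3.71. The intron difference, 1.502 points, which did not pass, ran from -0.826 without replicate 4 to 1.70 without replicate 1, and at a promoter limit of 200 bp it was 1.82 and passed (Fisher's exact test, adjusted p = 0.0265). The E-box ratio to the flank, 0.993, was 1.03 at 50 bp and ran from 0.96 without replicate 1 to 1.00, just above 1, without replicate 4. At 50 bp the raised and lowered words numbered 140 and 156; without 1 library the ranges were 223 to 351 and 262 to 466. The 706 genes became 340 at 50 bp, 435 with the stronger members only, and 962 to 1152 without 1 library. Of 223 alternative values in all, 180 kept their direction, their side of the threshold and, for counts, their size within 1.5 times. No paired analysis was possible because there is 1 group. Depth is unknown, so an absent library summit can reflect a shallow library or a weak site, which cannot be told apart.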

Other observations

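In the lower 8 of 10 equal bins of sub-threshold signal, fewer peaks were matched in all 3 libraries than the product of the 3 single-library shares. In bin 1 the share was 0.392% and the product 2.68%, in bin 5 9.30% and 17.6%, in bin 8 44.6% and 47.4%, and in bin 10 70.1% and 69.5%. The pooled signal combines the libraries, and what part this has in the difference was not tested.

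The lowest signal quartile held 30 members, and 16 of them (53.3%) had an IDR summit within 2 kb, against 22.8% of the 5076 other peaks of that quartile (Fisher's exact test, p = 2.81e-04). The net intron member, 861 bp from an IDR summit, is 1 of these 30. The p-value is not adjusted over the 4 quartiles, which were set after the data had been seen. No other quartile had a higher share in members. The members of the lowest quartile had a mean GC content of 43.4% at the summit and 38.5% on the right, the opposite order to that over all members.

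The AP-1 word TGANTCA was at 1.48 times the genome share of like GC content in intronic members, in 79 of 2546 windows, and at 1.15 times at promoters and 1.07 times in intergenic members. Its intronic ratio was 1.09 in the other sub-threshold peaks and 1.29 in the matched IDR peaks. CAGGTAG, the Zelda word, was in 11 member windows, 0.47 times the genome share of like GC content. These ratios are descriptions and were read after all words had been computed.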
